A study of Mus musculus with 7 samples.

Results

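The genes described here are those that a gene annotation of the array assigns to RNA splicing, measured in eosinophils that had been sorted by flow cytometry from mouse lungs. Eosinophils are white blood cells with basic proteins in their granules, and they gather in the lung in allergic disease. A probe set was taken where its Gene Ontology process terms held the exact entry RNA splicing and none of chromatin modification, DNA replication and mitosis, and 1 probe set was kept per symbol, the one with the highest mean over all arrays. The only measured value in this choice was that mean. The rule gave 144 genes of 18179 genes tested, from 177 probe sets, and 2 further probe sets were left out for a mitosis entry. The cells came from BALB/c mice, an inbred strain, whose lungs had been challenged with saline (4 libraries) or with OVA (3 libraries). OVA is ovalbumin, an egg white protein used as an allergen. The animals' age and the length of the challenge are not given in the sources used here. Nothing in the labels ties a library to 1 animal or to a pool, and the p-values therefore cover only the spread among these 7 samples, which may be technical.

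Splicing removes introns from precursor messenger RNA. It is carried out by the spliceosome, which assembles on each intron from the U1, U2 and U4/U6.U5 small nuclear ribonucleoproteins (snRNPs), each an RNA wrapped by a ring of Sm or LSm proteins, and which is then activated by the PRP19 complex and RNA helicases. SR proteins, rich in arginine and serine, and heterogeneous nuclear ribonucleoproteins (hnRNPs) bind exons and introns and help to decide which splice sites are used. Many transcripts of immune cells are spliced differently on activation.

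Levels are log2 values after robust multi-array averaging (RMA), and each difference is the OVA mean less the saline mean, given with limma's standard error (SE). A gene was called at a Benjamini-Hochberg adjusted p under 0.05 over all 18179 genes. Of the 144 splicing genes, 14 were called higher and 2 lower in OVA by limma, against 5.29% of all genes called higher and 1.17% called lower. As shares, 9.72% of the splicing genes were called higher and 1.39% lower. The 144 genes had high signal compared with the array as a whole, with a median saline level of 8.97 against 6.68 over all genes. Among genes with a mean of 8 or more, a filter chosen after seeing the data, 14 of 110 splicing genes (12.7%) were called higher, against 13% of all 4314 such genes, and 2 were called lower, against 4.03%, so that the share called was near the background once dim genes were left out. Among genes with a mean above the negative control median, 15 of 143 splicing genes (10.5%) were called higher and 2 lower, against 7.72% and 1.78%. The called genes with a difference of 1 or more were Lsm5, Lsm8 and Srsf3, all higher, against 1.77% of all genes called that far higher and 0.215% that far lower. The median difference of the 144 genes was 0.17, against -0.07 for all genes, and among genes with a mean of 8 or more it was 0.21 against 0.11. The 0.17 became 0.064 on a second quantile normalization, 0.054 in a fit that included control separation (described with the libraries) and 0.045 once saline 1 and 2 were left out. In bulk samples, fewer cells of a type and less RNA per cell cannot be told apart.

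**Figure D1:**
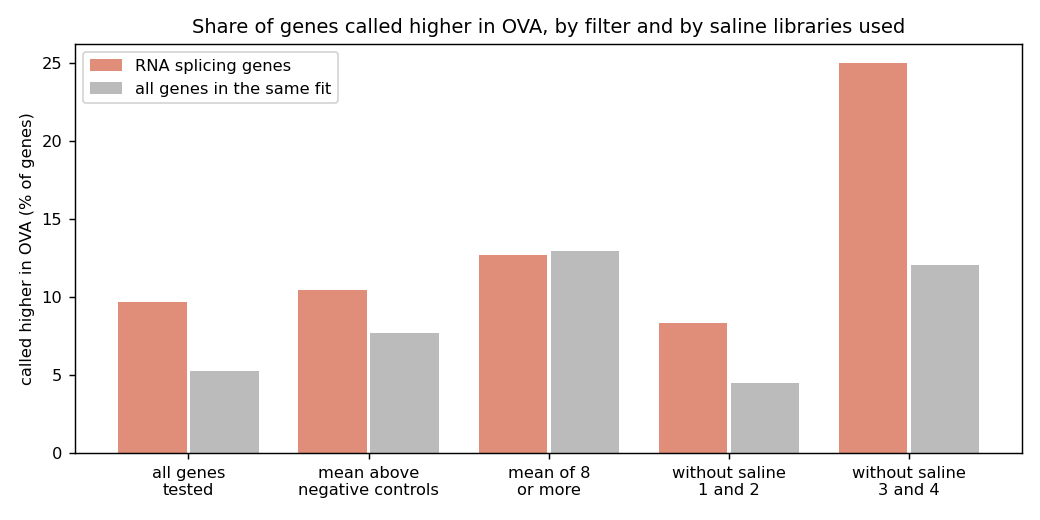
Percentage of genes called higher in OVA (vertical axis, limma adjusted p under 0.05) among the RNA splicing genes and among all genes of the same fit, under 2 filters on dim genes and with pairs of saline libraries left out. The share of splicing genes was 9.72% against 5.29% over all genes, 12.7% against 13% among genes with a mean of 8 or more, and 25% against 12.1% without saline 3 and 4.

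The saline libraries differed among themselves in these genes. The mean over the 144 genes was 8.95 and 8.88 in saline 1 and 2, 9.15 and 9.20 in saline 3 and 4, and 9.16, 9.27 and 9.33 in OVA 1, 2 and 3. OVA 1 thus lay within the range of the saline libraries. Control separation, the area under the receiver operating curve of positive against negative controls on the array, was 0.81 and 0.80 in saline 1 and 2 but 0.84 in both saline 3 and 4. It was 0.83, 0.85 and 0.85 in OVA 1, 2 and 3. Both saline 3 and 4 lay above both saline 1 and 2 in 69 of the 144 genes (47.9%), against 22.8% of all genes. Among genes with a mean of 8 or more it was 52.7% of the splicing genes against 60% of all genes, so that the gap was shared by bright genes in general. With saline 1 and 2 left out, 12 splicing genes were called higher (8.33%, against 4.51% of all genes) and 4 lower (against 2.23%), and 13 of the 16 original calls remained. With saline 3 and 4 left out, 36 were called higher (25%, against 12.1%) and 2 lower (against 5.42%), with all 16 original calls among them. The part of control separation in these results was not tested beyond these values and a fit with it as a covariate, added after seeing the data. That fit kept 15 of the 16 calls, but the median difference of the 144 genes was 0.054 in it, and 6 genes were called lower.

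**Figure D2:**
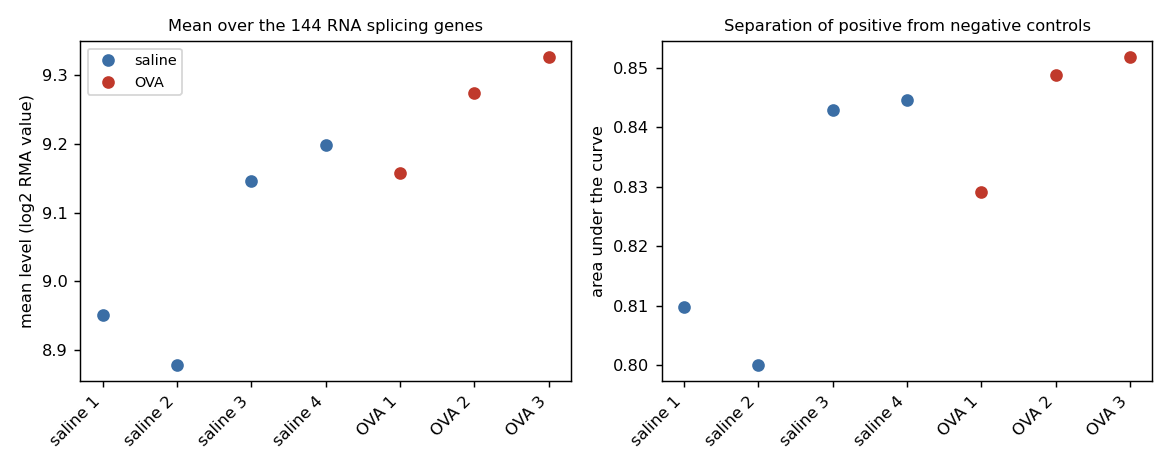
Mean log2 RMA level of the 144 RNA splicing genes in each library (left, vertical axis from 8.88 in saline 2 to 9.33 in OVA 3) and control separation (area under the receiver operating curve) in the same libraries (right). Saline 1 and 2 are lowest in both plots, and OVA 1 lies within the saline range in both.

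Of the eosinophil markers, all 7 measured were above the negative control median of 5.93 in both groups, and 4 were called higher, the mean over the list being 9.77 to 10.03 in saline and 10.53 to 10.82 in OVA libraries. Siglecf, a surface lectin, rose by 0.83 (SE 0.12), the granule genes Epx and Prg2 by 2.69 and 1.19, and Cebpe by 0.98. The other markers, not called, were Alox15 (0.33), Ccr3 (-0.135) and Il5ra (-0.35). Il5ra was called lower without saline 1 and 2 (limma adjusted p = 0.0333). In saline Epx lay between 6.44 and 6.65, close to the negative controls. Among 10 alveolar macrophage markers 5 were called higher, with a mean over the list of 6.31 to 6.55 in saline and 7.96 to 8.34 in OVA libraries. These included the secreted protein Chil3 (6.20), the carbonic anhydrase Car4 (5.36) and the integrin chain Itgax (2.07). Marco, Siglec1 and Krt79 of the same list differed by -0.19, -0.24 and -0.11 and were not called. Of the 10, 2 uncalled genes, Fabp4 (0.42) and Mertk (0.07), had means below the negative control median in both groups. These 2 genes were singled out after their values were seen. Of 5 neutrophil markers 1, the granule protein Ngp, was called higher (1.34). S100a9 (0.61), Retnlg (-0.07), Camp (-0.15) and S100a8 (-0.19) were not called. Of 5 epithelial markers 1, the surfactant protein Sftpc, was called higher (2.52, limma adjusted p = 0.0365). Cdh1 (0.56), Scgb1a1 (0.55), Krt18 (0.28) and Epcam (-0.04) were not. The Sftpc call was lost without saline 1 and 2 (0.118) and when any single library other than saline 3 was left out (up to 0.161). The epithelial list mean was 7.61 to 8.46 in saline and 8.60 to 8.70 in OVA. No T cell marker was called by limma (0 of 6), and the median difference of the list was -0.225. Cd3e differed by 0.16 and was the only one of the 6 above 0. Cd3d, a T cell receptor complex chain singled out after its values were seen, was 8.51, 8.87, 9.80 and 9.65 in saline and 7.71, 8.01 and 8.48 in OVA. It differed by -1.14 (limma adjusted p = 0.0647, and 0.00449 without saline 1 and 2). Of 6 proliferation genes 1, the topoisomerase Top2a, was called higher (0.59). Mcm5 (0.52), Pcna (0.45), Birc5 (0.055), Cdk1 (-0.05) and Ccnb1 (-0.18) were not called. S100a8, a neutrophil calcium-binding protein singled out after its values were seen, was 7.38 and 7.09 in saline 1 and 2, 9.97 and 9.71 in saline 3 and 4, and 7.46, 7.88 and 9.70 in OVA 1, 2 and 3. Bulk samples do not tell whether transcripts of the macrophage, neutrophil, epithelial and T cell lists came from such cells or from the eosinophils. Their part in the splicing results was not tested.

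Of the 13 members of the Sm and LSm rings, 4 (30.8%) were called higher and 0 lower. Over all genes 5.29% were called higher, and 13% of those with a mean of 8 or more. The median difference of the ring genes was 0.48, the highest of the role groups. That rank rested on saline 1 and 2: against saline 3 and 4 alone the median of the ring genes was 0.085, below those of the SR proteins (0.185) and of the regulators of alternative splicing (0.213). The 7 Sm proteins form the ring around the U1, U2, U4 and U5 RNAs, and the LSm proteins numbered 2 to 8 form the ring at the end of the U6 RNA. Of the 6 LSm ring members 3 were called higher, and of the 7 Sm members 1 was, a division made after the values were seen. By that division, the median against saline 3 and 4 alone was 0.62 for the LSm members and 0.03 for the Sm members. Against all saline libraries it was 0.84 and 0.27. Lsm5 was 8.47, 7.69, 9.23 and 8.78 in saline 1 to 4 and 9.85, 10.12 and 10.08 in OVA 1 to 3. Its OVA libraries all lay above the saline libraries, among which it spanned more than 1 log2 unit, and it rose by 1.47 (SE 0.30, limma adjusted p = 0.0189), a 2.78-fold change. Its other 2 probe sets differed by 1.18 and 1.40. The one at 1.18 is annotated with the same transcript record as the probe set used, so it is not an independent measurement.

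Lsm8, the subunit that sets the U6 ring apart from the related ring of mRNA decay, was 8.37, 7.90, 8.25 and 9.16 in saline and 9.41, 9.89 and 9.86 in OVA. It rose by 1.30 (SE 0.26, limma adjusted p = 0.0192), and saline 4 stood close below the OVA libraries. Lsm6 was more even, at 8.88, 8.80, 9.11 and 8.64 in saline and 9.60, 9.81 and 9.91 in OVA. It rose by 0.92 (SE 0.13, limma adjusted p = 0.00431) and remained called when any single library was left out. Snrpf, the F protein of the Sm ring, was 9.72, 9.37, 9.62 and 9.89 in saline and 10.36, 10.45 and 10.45 in OVA, and rose by 0.77 (SE 0.13, limma adjusted p = 0.00861). These 4 genes thus had no overlap between groups, as held for all 14 genes called higher. Called or not, 6 of the 13 ring members lay wholly above saline, against 11% of all genes and 22.65% of those with a mean of 8 or more.

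The calls in these rings depended on single libraries in 3 of the 4 genes. Lsm5 was not called by limma without saline 1 (0.0562), OVA 1 (0.0582), OVA 2 (0.0904) or OVA 3 (0.1), the values being adjusted p. Lsm8 lost its call when OVA 2 (0.0979), OVA 3 (0.109), saline 1 (0.0562) or the pair of saline 1 and 2 (0.0676) was left out. Snrpf lost its call when OVA 2 (0.051) or OVA 3 (0.0518) was left out.

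The other ring members did not pass the test. Lsm3 was 9.12, 8.40, 9.44 and 9.80 in saline and 9.87, 9.96 and 10.04 in OVA, a difference of 0.77 (SE 0.27, limma adjusted p = 0.149). Lsm7 went from 8.22 and 8.72 in saline 1 and 2 to 9.67 and 9.62 in saline 3 and 4, and was 9.46, 9.78 and 9.93 in OVA. Snrpd3 also had a gap within saline, with 9.94 and 9.46 in saline 1 and 2, 11.05 and 11.12 in saline 3 and 4, and 10.78 to 11.04 in OVA, below both saline 3 and 4. For Lsm7 and Snrpd3 the gap within saline was larger than that between saline 3 and 4 and OVA. Lsm4 differed by 0.06, Snrpd1 by 0.12, Snrpd2 by 0.17, Snrpe by 0.27 and Snrpg by 0.29. Snrpb, which encodes the B proteins, was 7.93 ± 0.21 (SD, n = 4) in saline and 7.74 ± 0.19 (n = 3) in OVA, the one negative difference of the group. Lsm2, a ring subunit outside the annotation entry, differed by 0.45 (limma adjusted p = 0.132).

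Of the ring genes called higher, Lsm5, Lsm8 and Snrpf have the sequences before their start sites given here, and Lsm6 does not. The sequences are the 250 bases before the RefSeq start on the gene's strand (GRCm38.p6). Capitals mark matches to any of 6 motifs, searched on both strands. The motifs, chosen after the expression results were known, were the ETS core (CCGGAAG), YY1 (AAGATGGC), the E-box (CACGTG), the CCAAT box (CCAAT), the GC box (GGGCGG) and the TATA box (TATAAA), none of which holds another in full. Lsm5 lies at chr6:56704700-56704949 (minus strand), Lsm8 at chr6:18848385-18848634 (plus strand) and Snrpf at chr10:93589659-93589908 (minus strand).
Lsm5: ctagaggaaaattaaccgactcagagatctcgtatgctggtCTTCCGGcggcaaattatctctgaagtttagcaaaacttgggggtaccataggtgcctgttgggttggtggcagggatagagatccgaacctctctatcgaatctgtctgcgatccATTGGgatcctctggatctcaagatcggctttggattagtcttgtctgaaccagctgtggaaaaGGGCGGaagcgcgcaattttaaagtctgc
Lsm8: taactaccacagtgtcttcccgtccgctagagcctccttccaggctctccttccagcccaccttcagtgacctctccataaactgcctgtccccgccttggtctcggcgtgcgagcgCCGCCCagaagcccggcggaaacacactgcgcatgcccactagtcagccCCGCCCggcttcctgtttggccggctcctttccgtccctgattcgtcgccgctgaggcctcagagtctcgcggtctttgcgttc
Snrpf: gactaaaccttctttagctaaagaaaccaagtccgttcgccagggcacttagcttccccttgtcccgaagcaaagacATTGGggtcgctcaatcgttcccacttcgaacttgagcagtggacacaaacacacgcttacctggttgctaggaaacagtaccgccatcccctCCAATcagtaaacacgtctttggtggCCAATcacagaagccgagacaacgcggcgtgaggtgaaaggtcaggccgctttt
Lsm5 held an ETS core 209 bases before the start, a CCAAT box at 93 and a GC box at 29, Lsm8 held 2 GC boxes, at 133 and 84, and Snrpf 3 CCAAT boxes, at 173, 80 and 54. No match was found in the window of Lsm6. Of the 144 splicing genes 120 had a promoter in the table, as did 13616 of all genes tested. The ETS core was present in 33 of the 120 (27.5%), against 9.78% of all promoters and 16.4% of those of genes with a mean of 8 or more. The E-box stood in 5 of them (4.17%, against 7.21% and 9.2%), and YY1 in 3 (2.5%, against 1.56% and 2.31%). The CCAAT box was present in 40.8% (35.8% and 36.2%), the GC box in 60.8% (47.2% and 62.6%) and the TATA box in 7.5% (11.6% and 6.77%). The 33 genes with an ETS core had a median difference of 0.09 and held 4 of the higher and both of the lower calls. The 87 without it had a median of 0.205. A match is a run of letters and does not show that a factor binds.

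**Figure D3:**
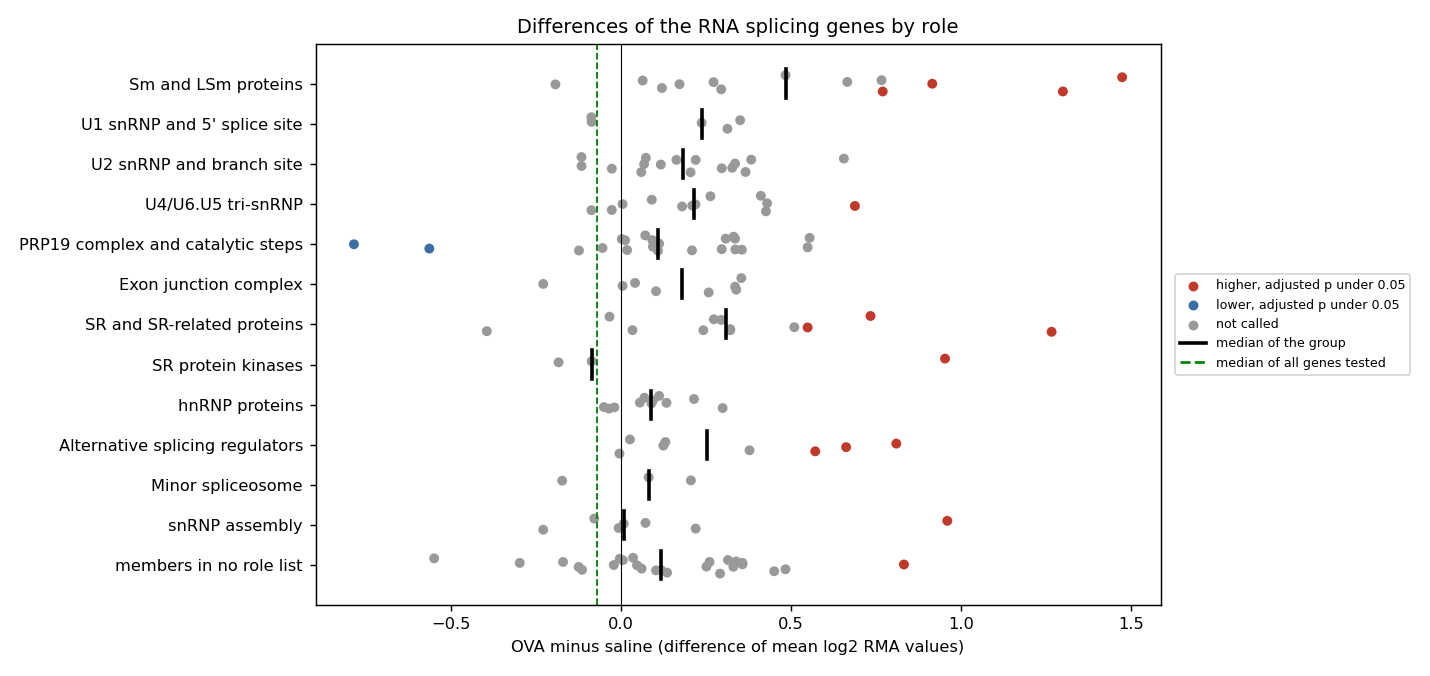
Difference between OVA and saline (horizontal axis, log2) for each RNA splicing gene, grouped by role with each gene in 1 group, with called genes in colour and a black bar at each group's median. The Sm and LSm group has the highest median, 0.48, the 2 lower calls lie among the PRP19 and catalytic genes, and all hnRNP genes lie between -0.05 and 0.30.

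Among SR and SR-related proteins, 3 of 12 members (25%) were called higher and 0 lower, with a median difference of 0.31. Over all genes 5.29% were called higher, and 13% of those with a mean of 8 or more. In 7 of the 12 all OVA libraries lay above all saline libraries, against 11% of all genes and 22.65% of those with a mean of 8 or more. Srsf7 was 9.71, 9.85, 9.80 and 10.13 in saline and 10.63, 10.52 and 10.67 in OVA. It rose by 0.73 (SE 0.12, limma adjusted p = 0.00762), with no overlap between the groups. Srsf4 was 9.30, 9.23, 9.34 and 9.40 in saline and 9.84, 9.83 and 9.93 in OVA, with a narrow spread in both groups, and rose by 0.55 (SE 0.10, limma adjusted p = 0.00994). Srsf3, the smallest member of the family and a shuttling export adaptor, was 7.37 and 7.64 in saline 1 and 2, 8.51 and 8.72 in saline 3 and 4, and 9.22, 9.46 and 9.30 in OVA. It rose by 1.27 (SE 0.30, limma adjusted p = 0.037), a 2.41-fold change, and with saline 1 and 2 left out it was still called but with a smaller difference, 0.71. Srsf7 was not called by limma without OVA 3 (0.0501), and Srsf4 not without OVA 2 (0.051) or OVA 3 (0.058). Srsf3 was not called by limma without saline 1 (0.0678), saline 2 (0.0716), OVA 1 (0.099), OVA 2 (0.15) or OVA 3 (0.146).

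The promoters of Srsf3 and Srsf7 are given since these are the SR genes with the largest called differences. Srsf3 lies at chr17:29032410-29032659 (plus strand) and Srsf7 at chr17:80207306-80207555 (minus strand).
Srsf3: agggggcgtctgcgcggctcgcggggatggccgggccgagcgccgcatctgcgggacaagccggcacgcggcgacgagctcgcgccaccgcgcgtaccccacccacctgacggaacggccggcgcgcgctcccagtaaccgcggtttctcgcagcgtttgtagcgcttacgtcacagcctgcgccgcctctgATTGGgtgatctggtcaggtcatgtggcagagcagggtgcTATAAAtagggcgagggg
Srsf7: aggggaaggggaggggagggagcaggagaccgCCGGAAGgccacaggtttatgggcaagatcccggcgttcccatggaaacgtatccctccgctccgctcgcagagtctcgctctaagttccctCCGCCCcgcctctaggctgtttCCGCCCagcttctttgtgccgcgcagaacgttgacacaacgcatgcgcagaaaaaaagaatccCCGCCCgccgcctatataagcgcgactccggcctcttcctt
Srsf3 held a TATA box 18 bases and a CCAAT box 58 bases before the start, whereas Srsf7 held GC boxes at 41, 104 and 126 and an ETS core at 218.

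The remaining SR genes did not pass the test. Srsf2 was 10.39, 10.34, 10.37 and 10.36 in saline and 10.68, 10.63 and 10.75 in OVA, a difference of 0.32 (SE 0.09, limma adjusted p = 0.0764) with no overlap. Srsf1, a general splicing factor and the founding member of the family, differed by 0.51 (SE 0.18, limma adjusted p = 0.143). Its values were 8.91 and 8.78 in saline 1 and 2, 9.43 and 9.44 in saline 3 and 4, and 9.68, 9.75 and 9.52 in OVA. Srsf10, a regulator that represses splicing when dephosphorylated, was the one member of the group that lay lower in all OVA libraries. It was 10.05, 10.21, 10.42 and 10.47 in saline and 9.97, 9.83 and 9.88 in OVA, a difference of -0.39 (SE 0.12, limma adjusted p = 0.108), and it was called lower with saline 1 and 2 left out. Srsf5 was 12.61 ± 0.02 (SD, n = 4) in saline and 12.58 ± 0.03 (n = 3) in OVA. Tra2a differed by 0.32, Rbm39 by 0.29, Srek1 by 0.27, Srsf9 by 0.24 and Tra2b by 0.03.

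The kinases that phosphorylate SR proteins did not move together. Srpk1, which acts on SR proteins in the cytoplasm and so promotes their entry into the nucleus, was 7.87, 7.71, 8.29 and 8.41 in saline and 9.02, 8.94 and 9.11 in OVA. It rose by 0.95 (SE 0.17, limma adjusted p = 0.0114), and all OVA libraries lay above saline, but it was not called without OVA 3 (adjusted p = 0.07 by limma). Srpk2 was 9.62 and 9.74 in saline 1 and 2, 10.32 and 10.48 in saline 3 and 4, and 9.58, 9.93 and 10.06 in OVA, a difference of -0.18 with overlapping groups. Prpf4b, a kinase bound to the spliceosome, differed by -0.09. Thus 1 of 3 members was called higher, against 5.29% of all genes and 13% of those with a mean of 8 or more. None of the 6 other kinases listed was called, with Clk4 at 0.32 and Clk3 at -0.16 (limma adjusted p = 0.241 and 0.391).

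Of the regulators of alternative splicing, 3 of 8 members (37.5%) were called higher, against 5.29% of all genes and 13% of those with a mean of 8 or more. Zranb2, a zinc finger protein that binds the 5′ splice site sequence, had the smallest p of all 144 genes. It was 8.96, 8.83, 9.14 and 8.91 in saline and 9.73, 9.92 and 9.66 in OVA, and rose by 0.81 (SE 0.12, limma adjusted p = 0.00366), and remained called when any single library was left out. Qk (quaking), an RNA-binding protein of the STAR family known from myelin and from monocyte differentiation, was 10.11, 9.92, 10.04 and 10.23 in saline and 10.67, 10.64 and 10.63 in OVA. It rose by 0.57 (SE 0.11, limma adjusted p = 0.0126), and its OVA libraries were closely alike. Rbm4b was 7.52, 7.71, 8.04 and 7.64 in saline and 8.31, 8.51 and 8.35 in OVA, and rose by 0.66 (SE 0.14, limma adjusted p = 0.0204). Its close relative Rbm4 was 7.05 ± 0.48 (SD, n = 4) in saline and 7.04 ± 0.15 (n = 3) in OVA. Qk was not called by limma without OVA 1 (0.0558), OVA 2 (0.0662) or OVA 3 (0.0594). Rbm4b lost its limma call when OVA 1 (0.0592), OVA 2 (0.112), OVA 3 (0.0841), saline 1 (0.0507) or the pair of saline 1 and 2 (0.0676) was left out.

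Ddx5, an RNA helicase with roles in transcription and splicing, differed by 0.13 from 12.49 ± 0.05 (SD, n = 4). Nono and Sfpq, partner proteins of nuclear paraspeckles, differed by 0.12 and 0.03. Ybx1, a cold shock domain protein, differed by 0.38 (limma adjusted p = 0.0923), and a brighter probe set of this gene that lacked the splicing entry by 0.43. Of 37 further regulators outside the entry, 0 were called in either direction by limma, and their median difference was -0.06. Ivns1abp and the methyltransferase cofactor Wtap had the smallest p among them and differed by 0.35 and 0.39 (limma adjusted p = 0.141 and 0.146).

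**Figure D4:**
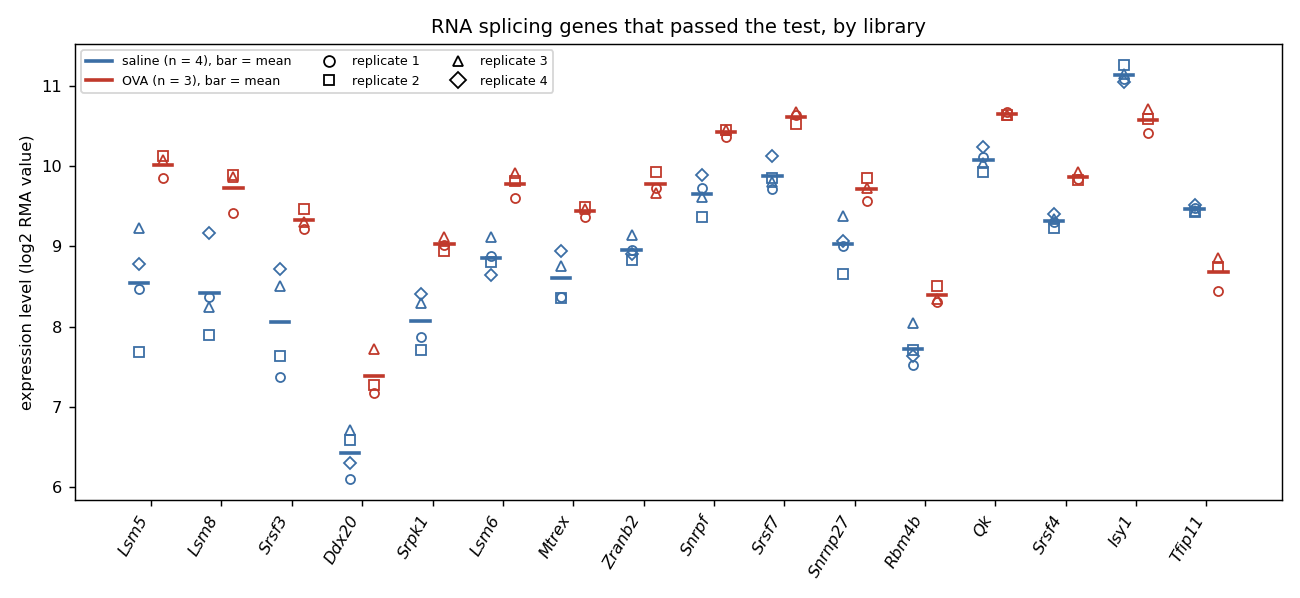
Log2 RMA level (vertical axis) of the 16 called RNA splicing genes in each of the 7 libraries, with a marker per library and a bar at the group mean, ordered by the difference. In the first 14 genes every OVA library lies above every saline library, and in Isy1 and Tfip11 every OVA library lies below. Lsm5, Lsm8 and Srsf3 have the widest spread among the saline libraries.

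The 2 genes that fell both belong to the group of the PRP19 complex and the catalytic steps. Of its 21 members 2 (9.52%) were called lower, against 1.17% of all genes and 4.03% of those with a mean of 8 or more. Those called higher were 0 of 21, against 5.29% and 13%. Tfip11, which with the helicase Dhx15 takes the spent spliceosome apart, was 9.48, 9.43, 9.44 and 9.51 in saline and 8.44, 8.74 and 8.86 in OVA. It fell by 0.79 (SE 0.12, limma adjusted p = 0.00476), the saline libraries lying within 0.1 of each other, and remained called when any single library was left out. Isy1, a component of the activated spliceosome, was 11.08, 11.26, 11.14 and 11.04 in saline and 10.41, 10.58 and 10.71 in OVA. It fell by 0.56 (SE 0.11, limma adjusted p = 0.0174) and was not called by limma without OVA 1 (0.0752) or OVA 2 (0.0811). Their promoters, at chr5:112326119-112326368 (plus strand) and chr6:87838760-87839009 (minus strand), are given as those of the members called lower.
Tfip11: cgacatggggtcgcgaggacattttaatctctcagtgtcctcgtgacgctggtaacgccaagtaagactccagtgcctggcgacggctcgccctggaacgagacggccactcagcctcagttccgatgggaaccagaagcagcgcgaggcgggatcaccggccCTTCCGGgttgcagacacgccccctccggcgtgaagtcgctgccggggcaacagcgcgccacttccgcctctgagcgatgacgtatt
Isy1: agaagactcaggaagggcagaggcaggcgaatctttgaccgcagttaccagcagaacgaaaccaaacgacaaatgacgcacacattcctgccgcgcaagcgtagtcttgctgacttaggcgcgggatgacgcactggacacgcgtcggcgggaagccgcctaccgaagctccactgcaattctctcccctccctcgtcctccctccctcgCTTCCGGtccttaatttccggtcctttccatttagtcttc
Each held an ETS core, 87 bases before the start in Tfip11 and 40 bases before it in Isy1, and no other of the 6 motifs.

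The median difference of the 21 PRP19 and catalytic genes was 0.11. Prpf19, the ubiquitin ligase that gives the complex its name, was 7.81 ± 0.06 (SD, n = 4) in saline and 7.82 ± 0.11 (n = 3) in OVA. Cdc5l, its partner, differed by 0.30, with 3 further probe sets between 0.28 and 0.30, and Dhx15 differed by 0.07. Dhx16, a helicase of spliceosome activation, was lower in all OVA libraries than in any saline library but by 0.12 (limma adjusted p = 0.479). Ppil1, a prolyl isomerase, was 5.99, 5.74, 5.95 and 5.95 in saline and 5.98, 6.08 and 5.99 in OVA, near the negative control median of 5.93. Of 9 further genes of this group 0 were called by limma, with Bcas2 at 0.66 and Cwc27 at 0.93 (adjusted p = 0.0773 and 0.193).

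In the U1, U2 and U4/U6.U5 particles, 1 of 33 members was called. It was a higher call, against 5.29% of all genes called higher and 13% of those with a mean of 8 or more. Snrnp27, a protein of the tri-snRNP, was 9.0, 8.65, 9.38 and 9.07 in saline and 9.56, 9.85 and 9.73 in OVA, and rose by 0.69 (SE 0.16, limma adjusted p = 0.0389). Its limma call was lost when OVA 1 (0.0761), OVA 2 (0.174), OVA 3 (0.157), saline 1 (0.0931) or the pair of saline 1 and 2 (0.0879) was left out. The next gene beyond the threshold was Sf3a3, a subunit of the U2 particle, at 7.80, 7.45, 7.99 and 8.19 in saline and 8.38, 8.52 and 8.64 in OVA, a difference of 0.66 (SE 0.17, limma adjusted p = 0.0515). Its groups did not overlap, and it was called where dim genes were left out.

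The other named genes of these particles differed by less. Sf3b1, the U2 subunit that binds the branch site and is often mutated in blood disorders, was 11.63 ± 0.08 (SD, n = 4) in saline and 11.60 ± 0.03 (n = 3) in OVA. Prpf8, the central scaffold of the catalytic core, differed by 0.26 (SE 0.15), Usp39 by 0.43 (SE 0.14, called higher with saline 1 and 2 left out), Rbm17 by 0.38 (SE 0.16) and the U1 genes Luc7l3, Prpf39 and Snrpa by 0.35, 0.31 and -0.09. Their limma adjusted p ran from 0.132 for Usp39 to 0.738 for Snrpa. The medians were 0.24 over 5 U1 genes, 0.18 over 16 U2 genes and 0.21 over 12 tri-snRNP genes. Outside the entry, 1 of 10 further tri-snRNP genes, 0 of 7 U1 genes and 0 of 9 U2 genes were called by limma. The one called was Txnl4b, a probe set left out for its mitosis entry, which was 8.58, 8.82, 8.40 and 8.99 in saline and 9.39, 9.42 and 9.58 in OVA. It rose by 0.77 (SE 0.15, limma adjusted p = 0.0154) and was not called by limma without OVA 1 (0.0508), OVA 2 (0.0655) or OVA 3 (0.0901). Ppih differed by 0.89, Tial1 by 0.32, Luc7l by 0.47, Sf3b2 by 0.46 and Htatsf1 by 0.56 (limma adjusted p from 0.0541 to 0.154).

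No hnRNP gene of the entry was called (0 of 11 by limma), against 5.29% of all genes called higher and 1.17% lower. With a mean of 8 or more, 13% of all genes were called higher and 4.03% lower. The differences of the hnRNP genes spanned only -0.05 to 0.30, with a median of 0.09. Hnrnpa1, which represses exons and is known to counter SR proteins, was 8.53, 8.83, 8.49 and 8.46 in saline and 8.78, 8.83 and 9.02 in OVA, a difference of 0.30 (SE 0.12, limma adjusted p = 0.211). Hnrnpk was 12.10 ± 0.12 (SD, n = 4) in saline and 12.06 ± 0.06 (n = 3) in OVA, and Hnrnpa2b1 was 11.70 ± 0.07 and 11.79 ± 0.07. Ptbp1 and Ptbp2, the polypyrimidine tract binding proteins, differed by 0.06 and 0.21. Several hnRNP genes have near-identical processed copies in the genome, and the 7 probe sets of Hnrnpa3 and 4 of Hnrnpf cannot be tied to 1 locus from these data. Of 14 further hnRNP genes outside the entry 1 was called, Hnrnph3, at 11.06, 11.02, 11.09 and 10.94 in saline and 11.52, 11.65 and 11.49 in OVA. It rose by 0.53 (SE 0.10, limma adjusted p = 0.0133), and was not called without OVA 2 (adjusted p = 0.0869 by limma). Hnrnpdl differed by 0.38 (limma adjusted p = 0.144).

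Exon junction complex genes, whose products mark spliced junctions, held no call among 8 members, and their median difference was 0.18. Among all genes 5.29% were called higher and 1.17% lower. The core helicase Eif4a3 differed by 0.10, the scaffold Srrm1 by 0.34 and the export adaptor Alyref by 0.34 (limma adjusted p = 0.749, 0.101 and 0.173). Casc3 and Sap18, outside the entry, differed by 0.16 and 0.42, and 0 of 5 such genes were called. Among 7 genes of snRNP assembly, which load the Sm ring onto small nuclear RNAs with the SMN complex, 1 was called. The share called higher was 14.3%, against 5.29% of all genes and 7.72% of those with a mean above the negative control median. Ddx20, the SMN complex helicase also known as Gemin3, was 6.10, 6.59, 6.72 and 6.31 in saline and 7.18, 7.27 and 7.72 in OVA. It rose by 0.96 (SE 0.18, limma adjusted p = 0.014), lay in saline close to the negative control median of 5.93, and was not called without OVA 3 (adjusted p = 0.0722 by limma). Gemin2 and Gemin8 differed by 0.22 and -0.23, and the second probe set of Gemin8 by 0.05. Of 11 further assembly genes 0 were called, with Tssc4 and Snupn at 0.38 and 0.79 (limma adjusted p = 0.0761 and 0.094).

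In the minor spliceosome, which removes a rare class of introns, 0 of 3 members and 0 of 6 further genes were called by limma. Among all genes 5.29% were called higher and 1.17% lower. Snrnp48 differed by 0.21, Zmat5 by -0.17, Pdcd7 by 0.36 and Rbm41 by 0.27. The neighbouring pathways held no member. Of 7 tRNA splicing genes 0 were called (Rtraf 0.31, Clp1 0.30), and of 17 genes of mRNA 3′ end processing 0 were called, although 16 of the 17 differences were above 0 (94.1%), with a median of 0.23, against 38.1% of all genes and 63.4% of those with a mean of 8 or more. Cpsf4 and Cpsf6 of that group differed by 0.50 and 0.34 (limma adjusted p = 0.0613 and 0.14).

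The 25 members in no role group had a median difference of 0.12. Of them 1 (4%) was called higher and 0 lower, against 5.29% and 1.17% of all genes. Mtrex, the helicase that feeds RNA to the nuclear exosome, was 8.37, 8.36, 8.76 and 8.94 in saline and 9.36, 9.49 and 9.47 in OVA. It rose by 0.83 (SE 0.16, limma adjusted p = 0.0133) and was not called by limma without OVA 2 (0.0703) or OVA 3 (0.0729). Pabpc1, the cytoplasmic poly(A) binding protein, was 12.31 ± 0.04 (SD, n = 4) in saline and 12.14 ± 0.05 (n = 3) in OVA, lower in all OVA libraries but with a difference of -0.17 (limma adjusted p = 0.319). Ttf2 had a mean under the negative control median, the only member to do so, and differed by -0.11. Lsm10, a ring protein of the U7 particle that trims histone messages, differed by -0.55 (SE 0.25, limma adjusted p = 0.241) and was called lower with saline 1 and 2 left out.

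Over all 151 splicing pathway genes outside the entry, 3 were called higher (1.99%) and 0 lower by limma, against 5.29% and 1.17% of all genes. In the fit of genes with a mean of 8 or more, 3 of 92 such genes (3.26%) were called higher and 0 lower, against 13% and 4.03%. At an unadjusted p under 0.05 the counts were 34 higher and 4 lower for the 151 genes. For the 144 members they were 39 and 4, against 13% and 7.86% of all genes. Among genes with a mean of 8 or more, 30% of the members and 26.2% of all genes were higher at that p. The third call outside the entry was Rsrc1, an arginine- and serine-rich coiled-coil protein, at 6.06, 6.73, 6.36 and 6.51 in saline and 7.25, 7.32 and 7.37 in OVA. It rose by 0.90 (SE 0.15, limma adjusted p = 0.00849) and was not called without OVA 3 (adjusted p = 0.0542 by limma). Scaf11 differed by 0.43 (limma adjusted p = 0.0945), and 1 of 12 further SR-related genes was called. Groups did not overlap in 29 members with OVA above saline (20.1%, against 11% of all genes) and in 5 with OVA below (3.47%, against 8.63%). Among genes with a mean of 8 or more, OVA lay above saline without overlap in 22.7% of the splicing genes and in 22.7% of all genes. Of the 144 genes 22 had several probe sets, and 32 of their 36 other probe sets differed in the same direction as the one used.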

How the data were processed

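Log2 expression values of 35557 probe sets were deposited by the authors after RMA, per the submitters' processing notes, which give no version. RMA corrects background, quantile normalizes the arrays and combines probes into 1 value per probe set, which takes out most of any shift common to a whole library. Per the labels' protocols, RNA was amplified with NuGEN kits, turned into sense-strand cDNA and labelled with biotin, and the file headers name a MoGene 1.0 ST array. Each library was 1 array, and the number of arrays limits the precision. Symbols, accessions and process terms came from the deposited annotated table. It also holds 7 columns of values that could not be tied to samples by name, and these were not used.

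Symbols were updated through RefSeq genes (GRCm38.p6, names only), by accession for 16836 probe sets, by symbol for 1293 and by synonym for 670, while 977 kept the file's symbol and 15706 had none. This renamed 36 of the 144 genes. Per symbol the probe set with the highest mean was tested, for the 144 genes the one their rule gave. The comparison used lmFit and eBayes of limma 3.58.1 under R 4.3.3 with a term for group and 2-sided p-values. It was adjusted by Benjamini-Hochberg over 18179 genes. The code was checked on simulated data with independent noise for each gene and library. Those data held no gap between libraries such as that within saline, so the check does not bear on the calls reported here. The 144 genes, the role and marker lists and the alternatives were chosen with earlier results of these data known. Genes named in the text were the largest called differences (up to 12 each way), per role list the smallest p (2 genes) and the first-listed member, the highest and lowest means, the same for genes outside the entry, and called markers; other members were named, after their values were seen, to complete their group.

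Replicate numbers are shared between groups, but same-numbered libraries did not deviate together (correlations of deviations 0.273, -0.137 and 0.24), so the samples were not treated as paired. Alternatives were a second normalization, other filters, weights, thresholds and tests, a replicate block, other membership rules and libraries left out. One marker list is not reported here. Promoters are RefSeq windows, 1 start per gene, the first listed.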

Additional observations from a re-analysis of the deposited data

Results flagged for a closer look

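In 3 of the 69 splicing genes named by rule, 1 of the 4 saline libraries stood apart, its gap to the nearest library divided by the whole range being above Dixon's 95% critical value for 4 samples. Chance flags about 1 in 20 such groups. Srsf5 gave 1.0, as saline 3 was 12.58 and the other saline libraries 12.62. Ttf2 gave 0.86, with saline 2 at 6.25 and the others between 5.82 and 5.88. Ppil1 gave 0.84, with saline 2 at 5.74 and the others between 5.95 and 5.99. None of the 16 called genes was among them, and over all 144 splicing genes 9 exceeded that value.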

How the results depend on the processing

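The median difference of the 144 splicing genes stayed above 0 in 19 of 19 alternatives, from 0.045 (without saline 1 and 2) to 0.297 (without saline 3 and 4). However, all genes with a mean of 8 or more had a median of 0.11, so 0 is not the level of bright genes. Among the 19, limma's trend and robust setting changes only the standard errors and could not move the median (0.168). The median difference of the 151 other pathway genes was 0.10 and turned to -0.017 on a second quantile normalization. The 14 higher calls became 0 against a 1.5-fold minimum (limma's treat), 3 at 2-fold or more, 4 in an unmoderated comparison and 36 without saline 3 and 4, and ranged from 2 (without OVA 3) to 17 with 1 library left out. The 2 lower calls became 4 on a second quantile normalization or cyclic loess, 0 with treat or at 2-fold, 1 unmoderated, 6 with control separation as a covariate (added after seeing the data) and 4 without saline 1 and 2, and ranged from 1 to 2 with 1 library left out. The 3 higher calls among other pathway genes became 18 with array weights, 0 with treat or at 2-fold, 13 with a replicate block and 33 without saline 3 and 4, and ranged from 1 to 9 with 1 library left out. Their 0 lower calls became 1 on a second quantile normalization, cyclic loess, array weights or without saline 3 and 4, and 2 with the covariate or without saline 1 and 2. With the replicate block 18 splicing genes were called higher and 2 lower, although the numbers share no stated source. The cause of these changes was not tested, beyond fewer libraries where some were left out. Of 52 named genes that were not called, 24 were called under some alternative, 10 changed sign under some alternative, and 0 were called with the other sign. With 4 against 3 arrays, small differences may go uncalled, and genes near the negative controls have little signal above background.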
